A study of Atriplex lentiformis with 9 samples.

Results

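Blue copper proteins and copper transport genes were examined in roots of quailbush (Atriplex lentiformis), a desert saltbush planted to stabilise mine waste. The plants had grown for 11 weeks in tailings amended with compost at 10% (TC10), 15% (TC15) or 20% (TC20), so every plant grew in tailings and none is a control without them. Genes were chosen by name: the basic blue protein BABL, the uclacyanins, the copper transporters COPT1 to COPT6, the blue copper protein BCB, the copper chaperone CCH and the copper regulator SPL7. Of the 5164 entries in the files, 4 had one of these names, namely BABL, COPT5, COPT4 and CCH, and all 4 passed the filter on low values. The other names were not analysed here. BABL leads the list because it had been seen to be low in TC15, so its contrasts with TC15 are given as a description, without a test.

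Values are read counts per entry and library after division by the size factor of the authors, here called normalised reads. An entry bears the name of an Arabidopsis protein to which quailbush transcripts were assigned, so close relatives may share 1 entry. Expression was compared in 8 libraries, 2 of TC10 (plants 2 and 4), 3 of TC15 (plants 2, 6 and 10) and 3 of TC20 (plants 3, 5 and 9), with 3030394 to 4752637 recovered reads each. The TC10 plant 5 file is not used, because it is identical to that of TC15 plant 6 in all 4995 entries and its header names TC15 plant 6. The labels name separate plants, so p-values measure the spread between plants. Of the root markers looked for, 4 were listed (PHO1, SHR, SKOR and SCR), with a summed value of 1380 to 5489 normalised reads per library and SCR at 2.80 to 15.4. The 1 listed leaf marker, CB4B, had 18.4 to 120.1 normalised reads.

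Copper is needed in small amounts as the redox centre of several enzymes and is toxic when free, so plant cells pass it from carrier to carrier. In Arabidopsis, COPT proteins bring copper into the cytosol from outside the cell or from the vacuole, small chaperones such as CCH and ATOX1 bind it there, and P-type ATPases such as HMA5 export it or deliver it to organelles. Phytocyanins, the family of BABL, are small proteins of the cell surface and wall. Those that bind copper carry 1 copper atom each and pass electrons. When copper is short, Arabidopsis SPL7 raises uptake genes together with microRNAs that lower the transcripts of dispensable copper proteins, and plantacyanin, the protein of the BABL entry, is the target of one of them, miR408. Zinc, arsenic and lead of each root are among the labels' measurements, and root copper is not used here.

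BABL had its lowest values in TC15. It had 3099.6 and 3617 normalised reads in TC10 plants 2 and 4. In TC15 plants 2, 6 and 10 it had 2017, 1893 and 1415. In TC20 plants 3, 5 and 9 it had 3586, 3735 and 5149. Each TC15 library lay below each of the other 5, and the lowest of those was 1.54-fold above the highest TC15 library. BABL is the only one of the 4 entries with that order, which is how it was chosen, and 145 of the 4801 entries tested (3.02%) had it.

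On the log2(value + 1) scale, BABL differed by 1.22 in TC20 against TC15 and by -0.93 in TC15 against TC10, given without a test. TC20 and TC10 were not part of its choice against each other, and their BABL values overlapped. BABL averaged 4156 ± 863 normalised reads in TC20 (SD, n = 3) and 3358 ± 366 in TC10 (SD, n = 2). The log2 difference of 0.29 (SE 0.23) had a 95% interval of -0.25 to 0.83 and did not pass limma (adjusted p = 0.918). In that comparison limma passed 0 of 4801 entries (0.0%), 206 (4.29%) had an unadjusted p under 0.05, edgeR called 0 and DESeq2 14 (0.277%). Plant 9 held the highest BABL value in TC20, and without it the TC20 mean was 3660.2 and the log2 difference from TC10 was 0.13. Plant 9 was also the highest library in 21.1% of all entries tested, and its part in the BABL level was not tested. In bulk roots, fewer cells that express BABL and less BABL RNA per cell cannot be told apart.

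COPT5 is known in Arabidopsis for releasing copper from the vacuole into the cytosol. It had 453 and 618 normalised reads in TC10, 606, 553 and 798 in TC15, and 677, 598 and 784 in TC20, in the same order of plants. The 3 treatments overlapped. It varied least among the 4 entries, with a highest library 1.76-fold above the lowest, close to the median of 1.82-fold over the 3808 entries with a mean of at least 100 and no value of 0. COPT5 differed by 0.37 on the log2 scale in TC20 against TC10 (SE 0.23, 95% interval -0.16 to 0.89, limma adjusted p = 0.918), by 0.14 without TC10 plant 2 and by 0.59 without TC10 plant 4. In TC20 against TC15 it differed by 0.08 (SE 0.20, interval -0.39 to 0.55, limma adjusted p = 0.947).

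COPT4, another member of the same family, had few reads, 21 to 109 per library. It had 27.6 and 20.2 normalised reads in TC10, 46.6, 30.7 and 23.8 in TC15, and 27.4, 23.6 and 118 in TC20. A single library, TC20 plant 9, stood above all others, and the other 7 lay between 20.2 and 46.6. Its counting interval of 97.2 to 142.8 normalised reads (95%, exact Poisson, counting error only) did not reach that of TC15 plant 2, the next highest, at 34.6 to 61.5. COPT4 was 1 of 111 entries (2.31%) that were at least 2-fold higher in TC20 plant 9 than in every other library. The log2 difference of COPT4 was 0.38 in TC20 against TC15 (SE 0.63, limma adjusted p = 0.909), and -0.34 without plant 9, so its direction rests on that library. Against TC10 it was 0.82 (SE 0.71, limma adjusted p = 0.925), and 0.10 without plant 9.

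CCH, a copper chaperone known in Arabidopsis for its part in moving copper out of ageing tissue, also had few reads, 22 to 69 per library. It had 21.0 and 32.8 normalised reads in TC10, 47.6, 27.0 and 49.4 in TC15, and 69.9, 40.2 and 64.1 in TC20. Its means followed the compost percentage, at 26.9 ± 8.34 (SD, n = 2), 41.3 ± 12.4 and 58.1 ± 15.7 normalised reads (SD, n = 3 each), an order that 17.2% of all entries had. Each TC20 library lay above each TC10 library, as in 9.31% of entries, while TC15 overlapped both. The log2 difference in TC20 against TC10 was 1.08 (SE 0.43, 95% interval 0.07 to 2.09). Its unadjusted limma p was 0.0389, and it did not pass after adjustment over all entries (adjusted p = 0.918 with limma, 0.845 with edgeR and 0.688 with DESeq2). Leaving out 1 library at a time gave 0.77 to 1.39. The 95% counting intervals of TC20 plant 5 (29.4 to 53.6) and TC10 plant 4 (22.7 to 45.8) overlapped.

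**Figure D1:**
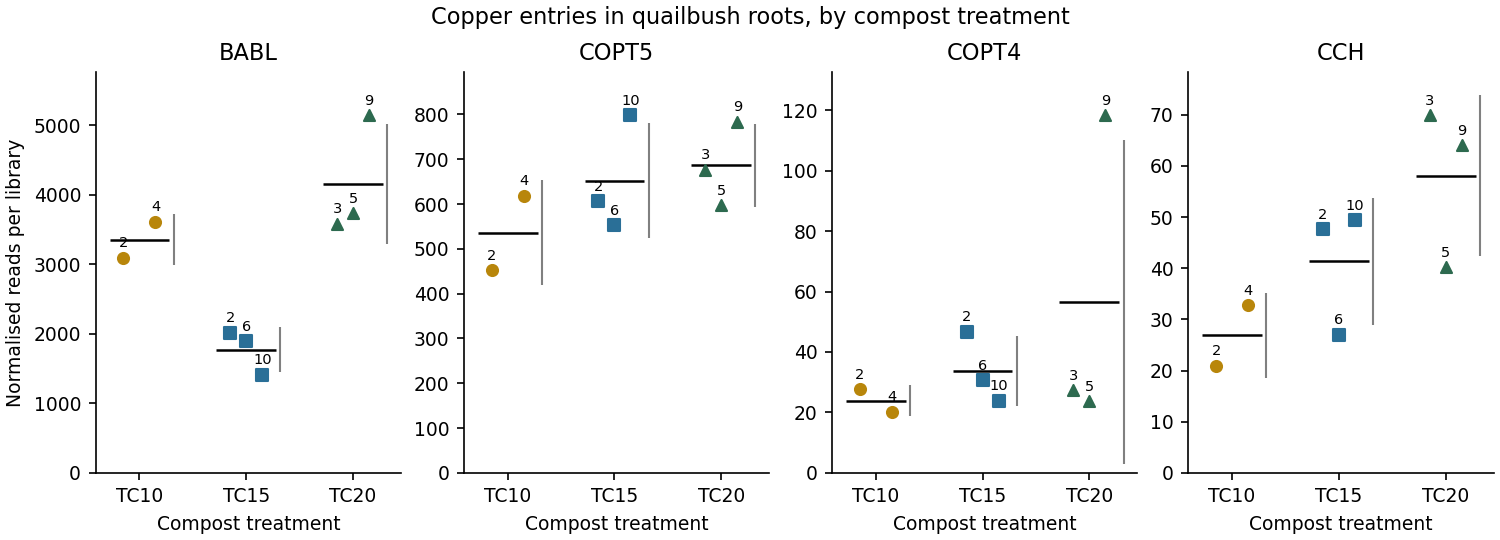
Normalised reads of the 4 copper entries (y axis, linear from 0) in each root library by compost treatment (x axis). Points are libraries with their plant number, horizontal lines are treatment means and grey bars beside them span 1 SD either way (n = 2 in TC10, n = 3 in TC15 and TC20). The TC15 points of BABL (1415 to 2017) lie below all others, and plant 9 stands apart in COPT4 at 118.

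Across the 3 treatments, none of COPT5, COPT4 and CCH passed the limma F test (adjusted p of 0.821, 0.875 and 0.813 in that order), nor had any of them an unadjusted p under 0.05. Limma passed 0 of 4801 entries (0.0%) in that test, 247 (5.14%) had an unadjusted p under 0.05, edgeR called 0 and DESeq2 35 of 5046 with an adjusted p (0.694%). In TC15 against TC10, COPT5 differed by 0.28 (SE 0.23), COPT4 by 0.44 (SE 0.71) and CCH by 0.59 (SE 0.43) on the log2 scale. The limma adjusted p was 0.805, 0.905 and 0.798 in that order. Leaving out 1 library at a time gave 0.06 to 0.51 for COPT5, the ends being without TC10 plant 2 and without TC10 plant 4. For COPT4 it gave 0.19 (without TC15 plant 2) to 0.66 (without TC10 plant 2), and for CCH 0.28 (without TC10 plant 2) to 0.90 (without TC10 plant 4). All 3 differences were positive, where BABL had -0.93, and 49.6% of all entries were positive. In that comparison limma passed 0 of 4801 entries (0.0%), 318 (6.62%) had an unadjusted p under 0.05, edgeR called 0 and DESeq2 22 (0.861%). In TC20 against TC15, CCH differed by 0.49 (SE 0.39, limma adjusted p = 0.827), and by 0.22 without TC15 plant 6. In that comparison 1 of the 4801 entries (0.0208%), none of the 4 copper entries, passed limma, while edgeR called 0 and DESeq2 11 (0.214%). DESeq2 called none of COPT5, COPT4 and CCH in these comparisons, and gave COPT4 and CCH no adjusted p in TC15 against TC10.

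**Figure D2:**
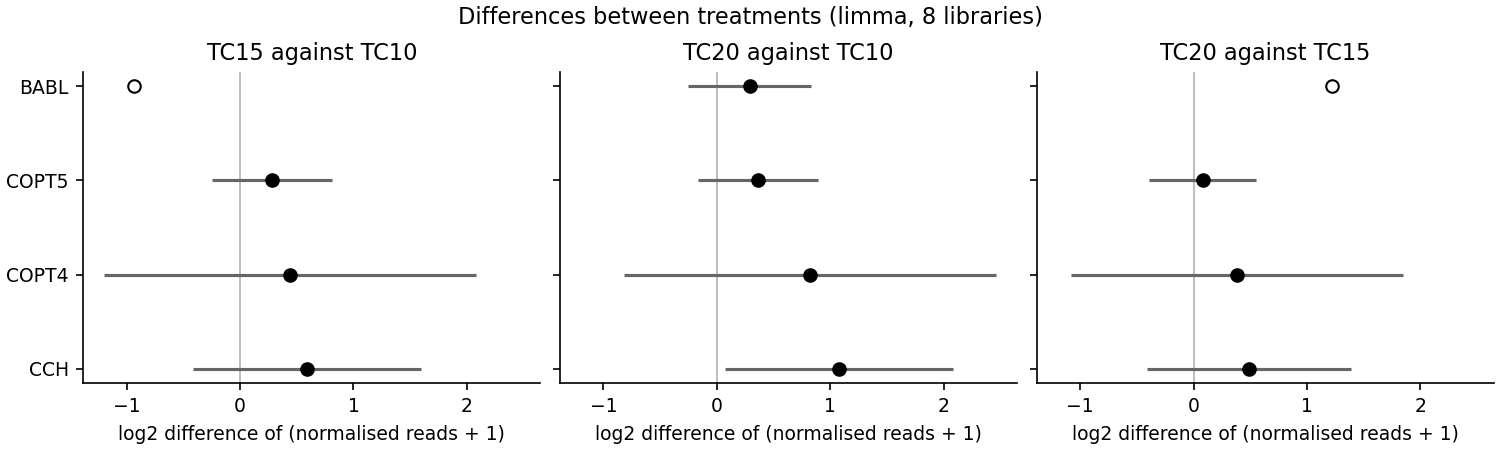
Log2 differences of (normalised reads + 1) between treatments for the 4 copper entries (x axis, 1 panel per pair), from limma on 8 libraries. Filled points have a 95% interval as a line, and the open BABL points of the TC15 pairs are given without one because BABL was chosen for them. The interval of CCH in TC20 against TC10 runs from 0.07 to 2.09, and the other intervals include 0.

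The 4 entries did not share 1 pattern over the 8 libraries. Of 6 pairs, CCH and COPT5 had the highest correlation of log2(value + 1), with Pearson r = 0.843 (exact permutation p = 0.00942, adjusted over 6 pairs 0.0565) and Spearman rho = 0.833 (exact p = 0.0154, adjusted 0.0923), short of the threshold after adjustment. Without the 2 libraries farthest from the median CCH value, TC10 plant 2 and TC15 plant 6, r was 0.57 (exact permutation p = 0.25). Within treatments, after subtraction of each treatment mean, r was 0.794. BABL had r of 0.207 with CCH, 0.365 with COPT4 and 0.00 with COPT5, given without a test because BABL was chosen on its values. Within treatments the r of BABL was 0.053, 0.793 and 0.018 in that order, so the value with COPT4 was close to that of CCH with COPT5. Spearman rho of BABL over the 8 libraries was 0.214, -0.05 and 0.07 in the same order. The BABL pairs count among the 6 pairs of the adjustment.

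The series title concerns zinc, and the roots held 491 and 637 ug/g zinc in TC10 plants 2 and 4, 373, 565 and 1075 ug/g in TC15 plants 2, 6 and 10, and 215, 277 and 174 ug/g in TC20 plants 3, 5 and 9. Within TC15, BABL was lower in plants with more zinc, at 2017, 1893 and 1415 normalised reads in order of zinc. In TC20 the plant with the lowest zinc had the highest BABL, and in TC10 the plant with more zinc had more BABL.

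A slope within treatments does not use the treatment means that BABL was chosen on. That slope was -0.35 log2 per doubling of zinc for BABL (SE 0.17, 95% interval -0.76 to 0.06) and did not pass limma (unadjusted p = 0.0863, adjusted p = 0.473). It kept its sign without each library in turn (-0.42 to -0.27). COPT4 was lower in plants with more zinc within each treatment, with a slope of -1.03 (SE 0.55, limma adjusted p = 0.496). That slope was -0.62 without TC20 plant 9 and -2.11 without TC15 plant 10. The slopes of COPT5 and CCH were 0.20 (SE 0.20, limma adjusted p = 0.762) and 0.01 (SE 0.42, limma adjusted p = 0.994). Over all entries limma passed 1 of 4801 (0.0208%), edgeR called 1, DESeq2 called 176 of 4663 (3.77%), and 590 (12.3%) had an unadjusted p under 0.05 in limma.

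Across treatments, the slope on zinc was -0.34 log2 per doubling for CCH (SE 0.23), -0.56 for COPT4 (SE 0.29) and -0.04 for COPT5 (SE 0.12), each with a limma adjusted p of at least 0.918. No entry of 4801 (0.0%) passed limma there, 204 (4.25%) had an unadjusted p under 0.05, edgeR called 0 and DESeq2 10 (0.229%). Over the 8 plants, COPT4 had Pearson r = -0.60 with log2 zinc (exact permutation p = 0.111, or 0.288 adjusted over 3 relations) and Spearman rho = -0.48 (exact p = 0.243, adjusted 0.365). Without TC15 plant 10 and TC20 plant 9, whose zinc lay farthest from the median, its r was -0.13 (exact permutation p = 0.812). CCH had r = -0.52 (exact permutation p = 0.192, adjusted 0.288), a Spearman rho of -0.50 (exact p = 0.216, adjusted 0.365), and r = -0.80 (exact p = 0.0556) without the same plants. COPT5 had r = -0.12 (exact permutation p = 0.785) and a Spearman rho of -0.05 (exact p = 0.935). For BABL, r was -0.77, -0.35 without the same 2 plants, and -0.73 within treatments, given without a test.

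**Figure D3:**
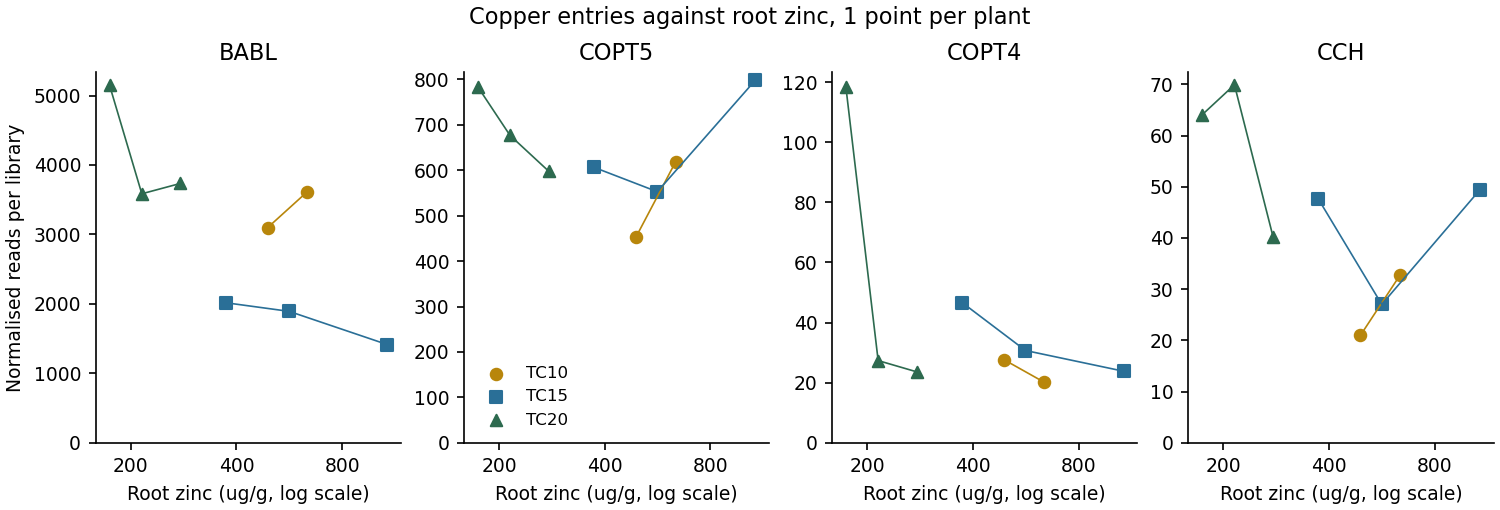
Normalised reads of the 4 copper entries (y axis, linear from 0) against root zinc in ug/g (x axis, log scale), 1 point per plant, with the plants of a treatment joined in order of zinc. TC15 plants have the lowest BABL at 373 to 1075 ug/g zinc, with the TC10 plants above them at 491 and 637 ug/g.

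The labels also give each plant a stress score on a scale they do not explain. It was 2 in both TC10 plants used, 3, 4 and 4 in TC15 plants 2, 6 and 10, and 2, 3 and 2 in TC20 plants 3, 5 and 9. The 2 plants that scored 4 had the lowest BABL values, 1893 and 1415 normalised reads. The 2 plants that shared a score of 3 did not share a BABL value: TC20 plant 5 had 3735 and TC15 plant 2 had 2017. The score and the treatment cannot be told apart at a score of 4, which only TC15 plants had.

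The entries most like BABL over the 8 libraries, among the 3815 others tested with a mean of at least 100, were named by the Pearson r of log2(value + 1), as a description. SELT, named after selenoprotein T, had r = 0.91, and so had VITH2, a homologue of vacuolar iron transporters. P4H10, a prolyl hydroxylase, had r = 0.90, the reticulon-like RTNLP 0.89 and RD23B, a ubiquitin receptor of the RAD23 family, 0.88. Over the 4800 other entries the median r was 0.03, and 3 (0.0625%) exceeded 0.9. The libraries share the treatments, so such entries have the low TC15 values by construction.

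Their range differed from that of BABL. VITH2 had 236 and 118 normalised reads in TC10, 36.4, 44.2 and 24.7 in TC15 and 82.1, 170.5 and 574 in TC20. All 3 TC15 libraries of VITH2 lay below the other 5. RD23B had 629 and 620.4 normalised reads in TC10, 586, 580 and 559 in TC15, and 608, 617 and 718 in TC20, the same order of TC15 within a far narrower range. In all 5 of these entries TC20 plant 9 was the highest library, as it was for BABL. Their choice by r with BABL favours that too, so it is not a separate trait.

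**Figure D4:**
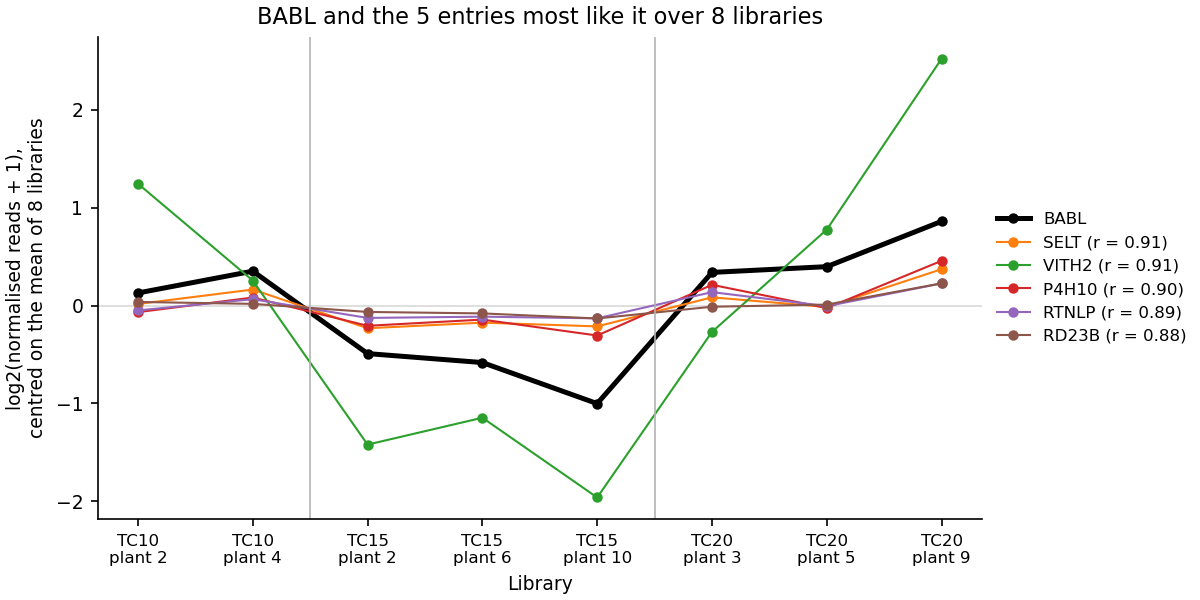
BABL (thick black line) and the 5 entries with the highest Pearson r with it, as log2(normalised reads + 1) centred on the mean of the 8 libraries (y axis), by library (x axis). All lie lowest in the TC15 libraries, and VITH2 spans 24.7 to 574 normalised reads while RD23B spans 559 to 718.

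A wider list of copper genes held 28 further entries, all of them tested. They included 7 ATPases, chaperones and assembly factors, 2 early nodulin-like proteins and 12 copper enzymes, enzyme subunits and relatives. The other 7 belong to families with members that respond to copper deficiency in Arabidopsis. Listed entries need not bind copper themselves. None passed limma in any comparison. In TC20 against TC15, 14 were positive and 14 negative with a median log2 of 0.00 (0.01 over all entries), and 5 had an unadjusted p under 0.05, 3 positive and 2 negative, where 280 of all entries (5.83%) did. In TC20 against TC10, 9 were positive and 19 negative with a median of -0.23 (0.00 over all entries), and 1 had an unadjusted p under 0.05, where 206 of all entries (4.29%) did. In TC15 against TC10, 11 were positive and 17 negative with a median of -0.09 (0.00 over all entries), and 1 had an unadjusted p under 0.05, where 318 of all entries (6.62%) did.

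The early nodulin-like proteins are relatives of BABL in the phytocyanin family, and whether they bind copper was not examined here. ENL3 had 203 and 405 normalised reads in TC10, 177, 205 and 187 in TC15, and 509.6, 255 and 1169 in TC20. Each TC20 library lay above each TC15 library (log2 1.49, SE 0.52, limma unadjusted p = 0.0218, adjusted p = 0.79), as in 6.98% of entries, while TC10 overlapped TC15. TC20 plant 9 held the highest value, and the TC20 mean was 644.8 with it and 382 without it. As a description, ENL3 had r = 0.80 with BABL, the highest of the other copper entries. CX5B1 followed at 0.75 and CX6B1 at 0.74, while ENL1 had 0.18. ENL1 had 980.5 and 1088 in TC10, 1610.1, 1533 and 1201 in TC15, and 1478, 1016 and 2359 in TC20. Its TC15 libraries lay above its TC10 libraries, as in 12.4% of entries and the opposite of BABL (log2 0.48, limma adjusted p = 0.788).

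Among the copper carriers, ATOX1, a chaperone related to CCH, had 10600 and 8040 normalised reads in TC10, 11857, 5678 and 9270 in TC15, and 7735, 8563 and 7810 in TC20, with all treatments overlapping. The copper ATPases HMA5 and HMA6 had limma F-test adjusted p of at least 0.825. HMA6, which imports copper into plastids in Arabidopsis, stayed between 306 and 369 normalised reads in the 8 libraries, and HMA5 between 832 and 1506. CX171, of the COX17 family that hands copper to cytochrome c oxidase, had 132 to 190 normalised reads. CUTA, a protein of the CutA family linked to metal tolerance in bacteria, averaged 537 ± 85.1 normalised reads in TC15 (SD, n = 3) and 750.1 ± 141 in TC10 (SD, n = 2), without overlap, as in 12.3% of entries (limma unadjusted p = 0.0408, adjusted p = 0.731).

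Among the copper enzymes and their subunits, CX5B1, a subunit of cytochrome c oxidase, was higher in each TC20 library than in any other. Of all entries, 6.98% had each TC20 library above each TC15 library and 9.31% above each TC10 library. The share with both at once was not computed. CX5B1 had 478 and 565 normalised reads in TC10, 431, 526 and 511 in TC15, and 673, 685 and 1069 in TC20 (log2 0.70 in TC20 against TC15, SE 0.21, limma unadjusted p = 0.0115, adjusted p = 0.79). CX6B1, another subunit, had 790 to 1279 normalised reads and was also highest in TC20 plant 9. COX3, a subunit encoded in the mitochondrial genome, had 124 in TC15 plant 2 and 7.94 to 38.5 elsewhere.

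Laccases are copper oxidases that join lignin units in the wall. LAC4 had 8995 and 6146 normalised reads in TC10, 7155, 2886 and 4379 in TC15, and 5781, 2973 and 5060 in TC20, with overlap between TC15 and both others. In TC20 against TC10, LAC4 differed by -0.75 on the log2 scale (SE 0.43, limma adjusted p = 0.918). LAC17 had 674 to 2529 and LAC3 had 778 to 2694 over the 8 libraries. LAC3 and LAC12 are, like plantacyanin, targets of miR408 in Arabidopsis. Their r with BABL was 0.26 and 0.43, and in each of them TC15 overlapped TC10 and TC20. Any part of miR408 in the values of BABL, LAC3 or LAC12 was not tested. LAC12, named after its values were seen, had the smallest limma p of the 28 entries for the slope on zinc within treatments. That slope was -0.80 log2 per doubling of zinc (SE 0.17). Because LAC12 was named after its values were seen, its adjusted p of 0.206 with limma and 0.00886 with DESeq2 are a description only. Over all entries, DESeq2 called 176 of 4663 (3.77%) on that slope, and 12.3% had an unadjusted limma p under 0.05. Further relatives of the multicopper oxidases, LPR2 and SKS1, had 1026 to 2456 and 30.8 to 108 normalised reads. SKS1 averaged 84.2 ± 24.5 in TC20 and 40.6 ± 9.36 in TC15 (SD, n = 3 each), without overlap, as in 6.98% of entries (log2 1.02, SE 0.40, limma unadjusted p = 0.0361, adjusted p = 0.79).

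FRO4, a reductase of copper and iron at the root surface that SPL7 raises in Arabidopsis when copper is short, had the smallest F-test p of its list (limma unadjusted p = 0.0503, adjusted p = 0.813). It had 60.0 and 12.5 normalised reads in TC10, 132, 70.0 and 121 in TC15, and 19.2, 57.7 and 8.69 in TC20. Each TC15 library lay above each of the other 5, the reverse of BABL, and its r with BABL was -0.84, the lowest of the 31 other copper entries. YSL2, a transporter of metals bound to nicotianamine, had the same order, with 128 and 167 in TC10, 247, 189 and 183 in TC15, and 141, 170.5 and 80.3 in TC20. It was named after its values were seen. Of the 28 entries these 2 (7.14%) had TC15 above all other libraries, as had 142 of all entries (2.96%), and none of the 28 had TC15 below all others. In TC20 against TC15, FRO4 differed by -2.22 on the log2 scale (SE 0.78, limma unadjusted p = 0.0226, adjusted p = 0.79). The difference of YSL2 was -0.71 (SE 0.31), given without a test. YSL3, of the same family as YSL2, was also named after its values were seen. It was the other of the 2 negative entries counted above for that pair (log2 -0.71, SE 0.29, given without a test). It had 192 and 259 normalised reads in TC10, 289, 295 and 249.7 in TC15, and 218, 109 and 204 in TC20.

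The other genes of that list did not share this order. OPT3, which loads iron and copper into the phloem in Arabidopsis, had 290.3 to 1132 normalised reads, both ends in TC20. FRO8, a reductase of the same family as FRO4, was higher in each TC15 library (744 to 962) than in both TC10 libraries (509.8 and 617), as in 12.4% of entries, while TC20 spanned 222 to 1002. SODF2, an iron superoxide dismutase, had 515 to 742, with all treatments overlapping. FRO7, of the same family as FRO4, was also named after its values were seen. It had 121 and 36.6 in TC10, 26.1, 9.83 and 76.7 in TC15, and 39.5, 53.3 and 27.1 in TC20, all overlapping. In TC15 against TC10 it differed by -1.26 on the log2 scale (SE 0.85), given without a test. Of the 7 genes, 4 were positive and 3 negative in that pair.

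**Figure D5:**
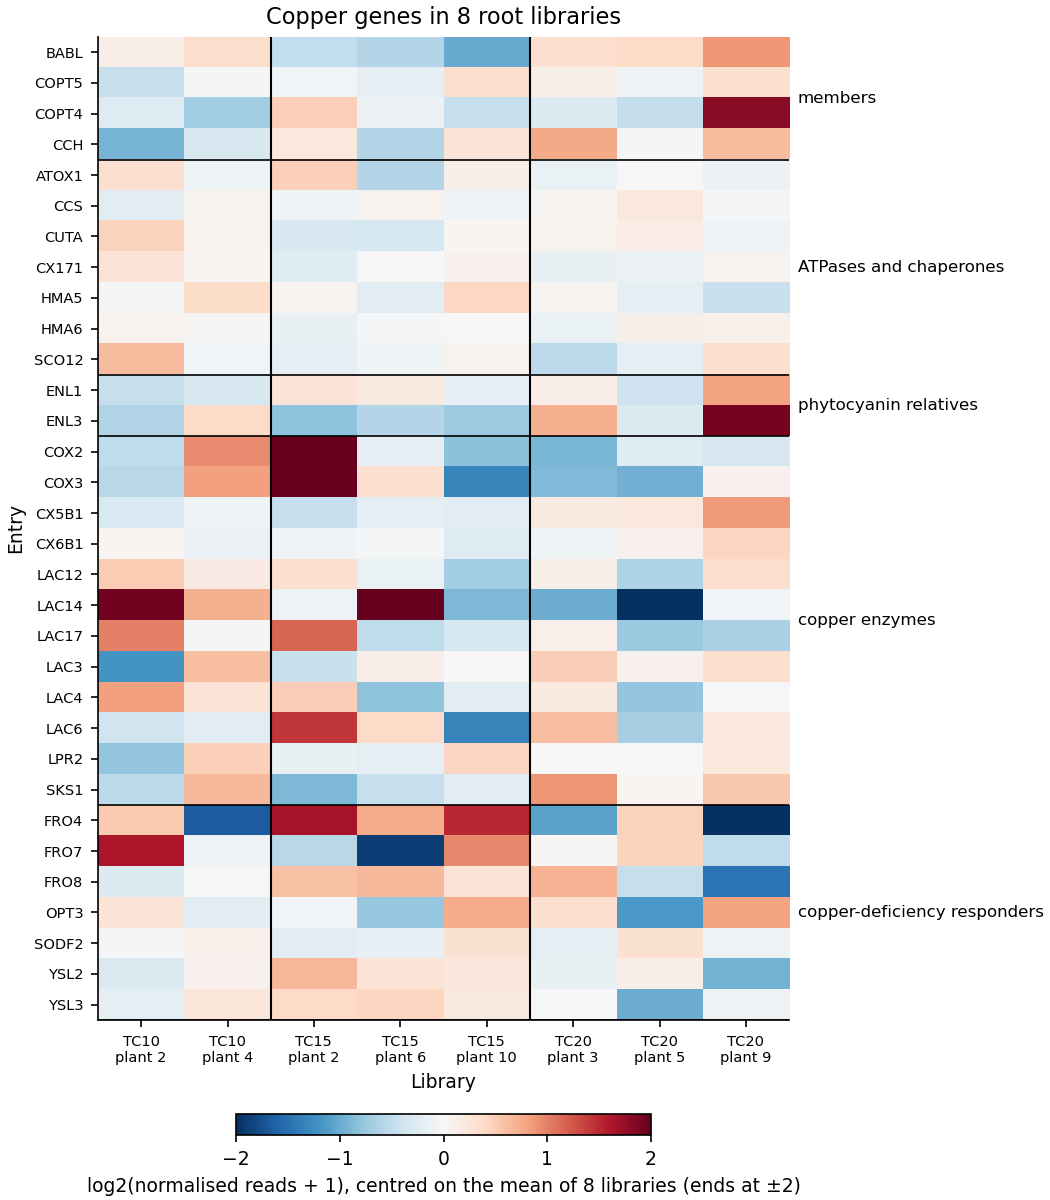
Log2(normalised reads + 1) of the 4 copper entries and the 28 further copper genes (rows), centred on the mean of the 8 libraries (columns), blue for lower and red for higher, with the colour scale ending at 2 either way. BABL is blue in the 3 TC15 libraries where FRO4 is red, and TC20 plant 9 is the reddest library for COPT4 and ENL3.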

How the data were processed

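Root RNA was isolated on plant kit columns and made into stranded total RNA libraries, per the labels' protocols. FastQC, Trim Galore, kallisto and DESeq2 are named in the submitters' processing notes. Not given in the sources used here are versions, the transcript reference and how entries were named. The deposited values are a normalised signal: in each library used, 100.0% of the values were whole multiples, within 0.001 of a read, of the value of 1 read, so read counts divided by the authors' size factor were recovered. Entries that a file does not list were set to 0. Testing used limma (version 3.58.1, R version 4.3.3, trended empirical Bayes) on log2(value + 1) of the 4801 entries that reached 10 in 2 or more libraries, with 8 libraries sharing 1 estimate of the spread, Benjamini-Hochberg adjustment over all entries and a threshold of 0.05. Fold changes on this scale are understated for low entries. Contrasts were tested without and, for zinc, with treatment as a covariate. The edgeR 4.0.16 quasi-likelihood test, DESeq2 1.42.0 and limma-voom were run on the recovered reads, and the code was tested on simulated counts. Correlations used exact permutation over all pairings, two-sided (Python 3.11.15, scipy 1.17.1). Intervals from reads cover counting error only.

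The 4 entries and the gene lists were chosen with earlier results of these data known. All listed entries of the rule are named. From the wider copper lists the named entries were the up to 3 of highest mean in each role and the one with the smallest F-test p in each list. LAC12, YSL2, YSL3 and FRO7 fall outside this rule and were named after their values were seen. The 5 most like BABL were those of highest r with a mean of at least 100, with entries named only by a locus code set aside. Neither a genome nor sequence tables were used here, so no sequences or coordinates are given.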

Additional observations from a re-analysis of the deposited data

How the results depend on the processing

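BABL kept the sign of its 3 log2 differences under every alternative run: other tests (edgeR, DESeq2, limma-voom), a pseudocount of 0.1, no filter, a mean of at least 100, median-of-ratios or TMM scaling, only the libraries of a pair, and each library left out (0.13 to 0.40 in TC20 against TC10, -1.04 to -0.78 in TC15 against TC10, 1.06 to 1.32 in TC20 against TC15). For the TC15 pairs this was fixed by the choice of BABL. With each TC15 library below all others, leaving out a library or using only a pair could not turn the sign. Those ranges describe the size of the difference only. COPT4 and CCH have no value under the mean of at least 100, and no DESeq2 adjusted p in TC15 against TC10. None of the 4 entries changed its side of the threshold, where tested, under these alternatives. Signs turned for small values: COPT4 in TC20 against TC15 (-0.34 without TC20 plant 9, at most 0.80 without another library), COPT5 in the same pair (-0.029 without TC15 plant 6, -0.019 without TC20 plant 9, at most 0.24), on zinc (0.071 without TC20 plant 9, lowest -0.24) and on zinc within treatments (-0.18 without TC15 plant 10, highest 0.30), and CCH on zinc within treatments (-0.048 with limma-voom, -0.071 without either TC10 library, -0.050 without TC15 plant 6, -0.74 without TC15 plant 10, highest 0.38). As deviations from treatment means, r with zinc was 0.014 for CCH and 0.42 for COPT5. The cause was not tested.

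Counts of calls over all entries moved. DESeq2 called 35 across treatments, 14 in TC20 against TC10, 22 in TC15 against TC10, 11 in TC20 against TC15, 10 on zinc and 176 on zinc within treatments. The 1 call in TC20 against TC15 became 0 with edgeR, limma-voom, a mean of at least 100 and only the libraries of the pair, and that on zinc within treatments 0 with limma-voom. Without a filter, 1 entry passed across treatments. Leaving out single libraries gave 0 to 1 across treatments, 0 to 2 in TC20 against TC10, 0 to 4 in TC15 against TC10, and 0 in TC20 against TC15 and on zinc within treatments. No paired analysis was possible because the treatments share fewer than 2 plant numbers among the libraries used. COPT4 and CCH rest on 21 to 109 reads per library, and the TC10 values on 2 libraries.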
